A study of Homo sapiens with 6 samples.

Results

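Splicing of 9 genes for actin-binding proteins was followed in breast cancer cells with and without RBM47, an RNA-binding protein. The genes were TPM1, TPM2, TPM3 and TPM4 (tropomyosins), ACTN1 and ACTN4 (alpha-actinins), CALD1 (caldesmon), FLNA (filamin A) and VCL (vinculin). All events of these genes in the table of cassette exons were taken, whatever their values. That gave 33 of 24725 events, in 8 of the 9 genes: 7 in TPM1, 6 in ACTN1, 5 in CALD1, 4 each in TPM2, TPM3 and FLNA, 2 in VCL and 1 in TPM4. ACTN4 had 0 events in the table and is not analysed here.

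All 6 samples were MDA231-BrM2a cells, a brain-metastatic derivative of the human breast cancer line MDA-MB-231. The 3 control samples were non-clonal cells with the empty retroviral vector pRetroX-Tight-Pur. The 3 RBM47 samples carried the same vector with Flag-tagged wild-type RBM47 and were clonal (the single-cell clone WT10). Both groups received doxycycline, which switches on the transgene, at 10 ng/ml for 3 days, and polyadenylated RNA was sequenced. The effect of RBM47 and that of having grown from 1 cell cannot be told apart in this design. The labels do not say whether samples of a group were separate cultures, so the spread between them may be technical.

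Tropomyosins are coiled-coil proteins that lie along actin filaments, and each tropomyosin gene makes several isoforms by choosing between alternative first, internal and last exons. Alpha-actinins and filamins cross-link actin filaments, caldesmon binds actin, myosin and tropomyosin, and vinculin ties filaments to adhesion sites. Several of these genes are textbook cases of exons that differ between muscle and non-muscle cells.

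In a cassette event an exon is kept in the RNA or left out of it. The inclusion rate is a fraction per sample, in which reads over the skipping junction are weighted by 2 because an included exon has 2 junctions. Reads were given as totals over the 3 samples of a group, so the depth of a single sample is unknown. The events of the 8 genes were deeply read, with a median of 2225 reads over both groups against 665 over all events. RBM47 replicate 2 stood apart, with 14.8% of its rates at exactly 0 or 1 among events of intermediate inclusion, against 6.07% to 7.64% in the other samples. All 4 markers of mesenchymal-like breast cancer lines had events, the deepest of each with 1693 to 294087 reads, against 1 of 6 epithelial markers (ERBB3, 53 reads) and 0 of 4 muscle markers. RBM47 itself had no event, so the transgene could not be checked in these data, and a gene without an event is not shown to be unexpressed.

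Most events of the 8 genes had a mean inclusion rate near 0 or near 1. The mean inclusion rate was at least 0.9 in 16 events, under 0.1 in 9 and between these limits in 8. In 23 of the 33 events the groups differed by less than 0.03, and the other 10 differed by at least 0.05, as 19.7 percent of all events did. The median difference (RBM47 minus control) was -0.000995, against 0 over all events, and the median absolute difference was 0.00844 against 0.0114.

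The study called an exon changed when it had 10 reads or more, its mean rates differed by 0.2 or more and the Fisher's exact p, taken here without adjustment, was 0.05 or lower. By these criteria 0 of the 33 events were higher with RBM47, where 0.607 percent of all events were, and 3 were lower (9.09% of the 33, in FLNA, TPM1 and TPM3), where 0.793 percent of all events were. Fisher's exact test is run on summed reads and takes no account of how replicates vary. Its p was 0.05 or lower in 12 of the 33 events (background 14.4 percent), and its adjusted p was under 0.05 in 8 (background 5.29 percent). A replicate-level test, limma on the rates of the 6 samples for events with a mean rate of 0.1 to 0.9, called 1 of the 8 events it could test (FLNA, lower). Over all events it called 0.784 percent lower and 0.750 percent higher. Before adjustment, 5 of the 8 had a limma p under 0.05 (background 12.0 percent). Control and RBM47 rates were fully separate in 8 events (background 9.92 percent), 3 that were higher (background 4.67 percent) and 5 that were lower (background 5.25 percent). Both counts include several events from a TPM2 pair of neighbouring exons that replace each other. All 3 higher events came from that pair or a like pair in TPM1. Events of a pair are not independent, so these shares do not count separate changes. The rates of all 3 events that met the study criteria stand in another row of the deposited table and were brought back to their event through the printed RBM47 average. No row fitted both printed averages, so the control rates of these 3 events do not average to the printed control average. Their mean control rates were 0.759 in FLNA, 0.435 in TPM1 and 0.311 in TPM3. From summed reads the control rates were 0.758, 0.595 and 0.429. The summed reads, which were not used in the matching, went the same way in these 3 events (differences of -0.229, -0.311 and -0.368). They did so in all 10 events that differed by at least 0.05, but the rest of those were aligned as deposited and do not bear on the matching.

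**Figure D1:**
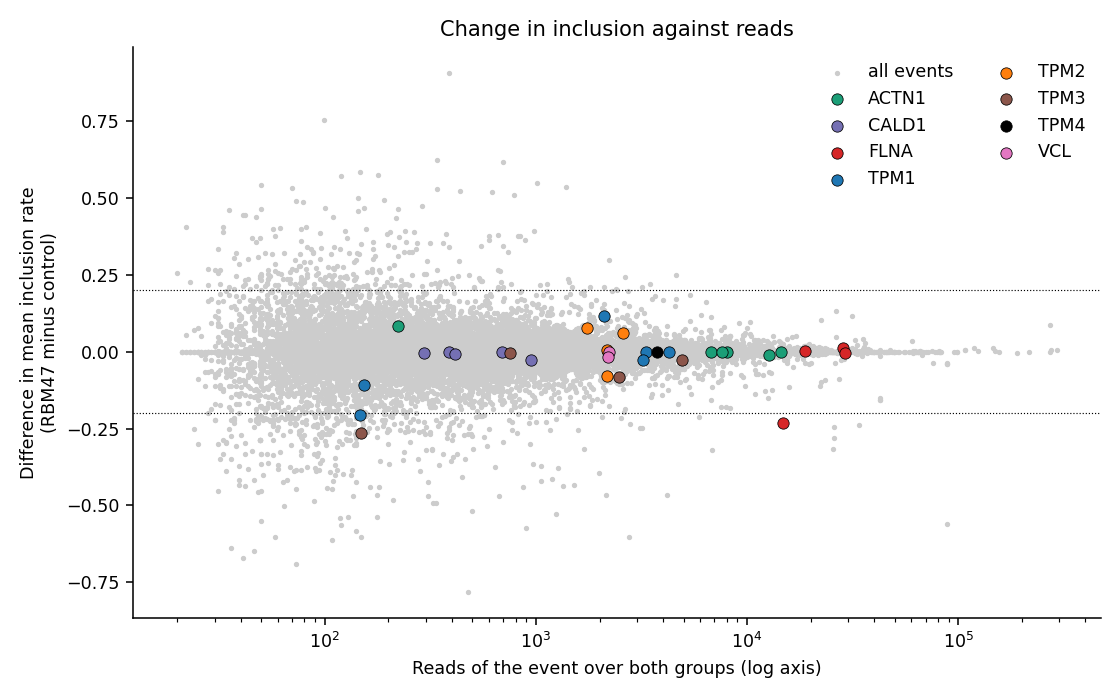
Difference in mean inclusion rate (RBM47 minus control, fraction) against the reads of the event over both groups (log axis), with all events in grey, the 33 events of the actin-binding genes coloured by gene and dotted lines at a difference of 0.2 in either direction. The FLNA event at -0.231 lay below the lower line among the more deeply read events (8638 control and 6111 RBM47 reads), while the TPM1 and TPM3 events below it had under 200 reads.

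The largest well-read change was in FLNA. Filamin A is a dimeric cross-linker built of an actin-binding domain and a chain of immunoglobulin-like repeats, and its short alternative exon adds codons within that chain. The exon has 24 bases (8 codons) and lies on chromosome X, 153585619 to 153585642 in GRCh37, minus strand, as a coding exon of 5 annotated transcripts. The event is on chromosome X, 153236386 to 153239184 as the table gives it, and this exon was found by gene and outer span. Its sequence is shown, exon in capitals and 40 intronic bases on each side in lower case, because it is the only exon of the 8 genes past the replicate-level test.

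FLNA 24-base exon: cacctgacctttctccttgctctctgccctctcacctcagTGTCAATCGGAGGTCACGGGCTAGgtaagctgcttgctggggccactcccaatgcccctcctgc

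The FLNA exon was included at rates of 0.754, 0.768 and 0.756 in control replicates 1, 2 and 3. In RBM47 replicates 1, 2 and 3 the rates were 0.523, 0.536 and 0.525. All 3 RBM47 samples lay below all 3 control samples, and the gap was far wider than the spread within either group. Mean inclusion fell by 0.231, from 0.759 ± 0.00781 to 0.528 ± 0.00703 (SD, n = 3 each), with a limma adjusted p of 0.000520. Summed reads were 7447 including and 1191 skipping in control and 4227 and 1884 in RBM47 cells (Fisher's exact p = 3.05e-137). The limma call was lost without the variance trend on reads (limma adjusted p = 0.0650). For this single event a two-sided exact permutation test over samples gave 0.1, the lowest p that 3 samples against 3 allow.

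The other 3 FLNA exons, of 123, 174 and 96 bases, were included nearly always. The deepest, the 174-base exon, had rates of 0.993, 0.999 and 0.991 in control and 0.993, 0.988 and 0.991 in RBM47 samples, from 14896 and 14031 reads. The 123-base exon went from 0.979 ± 0.00936 to 0.993 ± 0.00590 (SD, n = 3 each), a difference of 0.0136 with overlapping groups. Its Fisher's exact p was 8.19e-13 from 14282 and 14046 reads, an example of a small difference in deeply read totals. Of the 4 measured FLNA exons, 1 met the study criteria.

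The events with rates most like those of the FLNA exon, by Euclidean distance over the 6 samples among 22969 events with 30 reads or more per group, were in USP10 (distance 0.105), SEC31A (0.113) and SIX5 (0.117). The USP10 event went from 0.785 ± 0.0299 to 0.565 ± 0.0438 (SD, n = 3 each) with a limma adjusted p of 0.275. The SEC31A event went from 0.725 ± 0.0203 to 0.566 ± 0.0362 (SD, n = 3 each) with a limma adjusted p of 0.0375, and the SIX5 event from 0.733 ± 0.0670 to 0.540 ± 0.0255 (SD, n = 3 each) with a limma adjusted p of 0.0712.

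**Figure D2:**
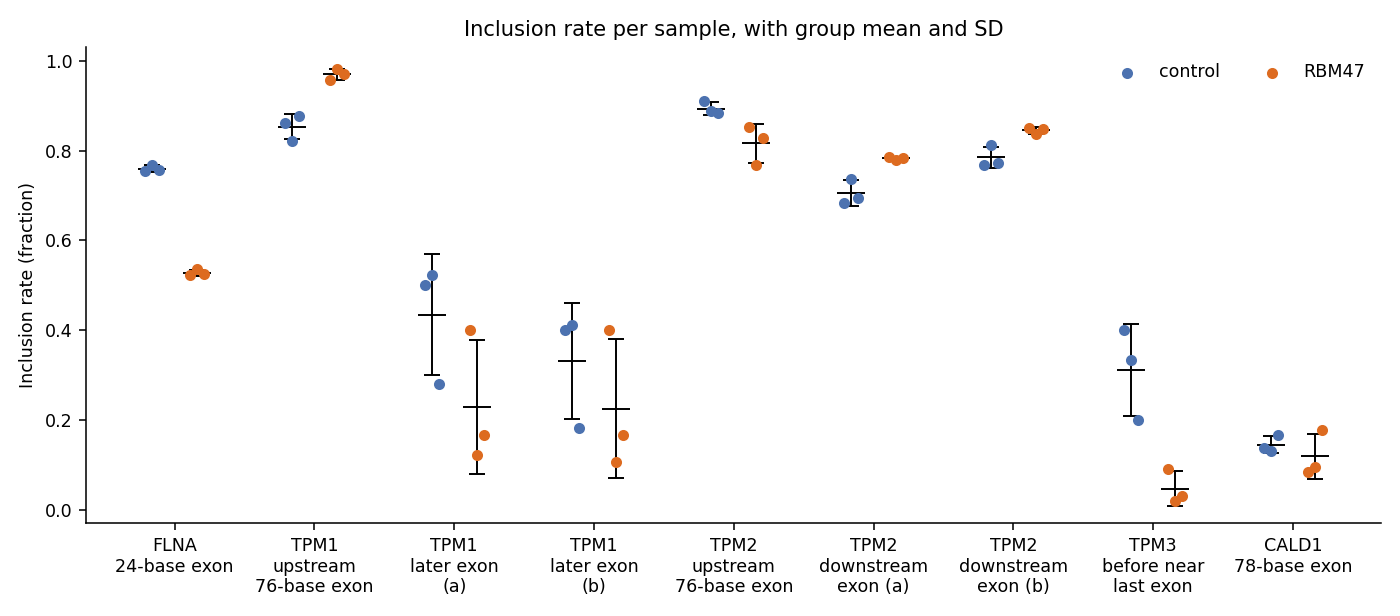
Inclusion rate (fraction) of 9 events in 5 genes, with 1 point per sample (control blue, RBM47 orange) and bars for the group mean and SD (n = 3); (a) and (b) are events with the same outer ends. FLNA samples lay at 0.754 to 0.768 in control and 0.523 to 0.536 with RBM47, while the samples of the later TPM1 exon (79 or 127 bases) overlapped between groups.

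Among the tropomyosins, TPM1 and TPM2 each have a pair of neighbouring internal exons of 76 bases that replace each other and are known for tissue-dependent use. They are shown here, 5′ to 3′, because the samples of the 2 groups did not overlap at any of them. In TPM1 the upstream exon lies on chromosome 15, 63353397 to 63353472, and the downstream exon at 63353912 to 63353987 (GRCh37, plus strand). In TPM2 the upstream exon lies on chromosome 9, 35685061 to 35685136, and the downstream exon at 35684729 to 35684804 (GRCh37, minus strand). Capitals mark the bases that differ from the other exon of the same gene, 33 in TPM1 and 36 in TPM2.

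TPM1 upstream 76-base exon: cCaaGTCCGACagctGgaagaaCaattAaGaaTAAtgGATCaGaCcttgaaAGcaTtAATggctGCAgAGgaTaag

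TPM1 downstream 76-base exon: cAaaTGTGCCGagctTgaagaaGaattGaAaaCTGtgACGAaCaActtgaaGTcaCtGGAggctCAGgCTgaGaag

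TPM2 upstream 76-base exon: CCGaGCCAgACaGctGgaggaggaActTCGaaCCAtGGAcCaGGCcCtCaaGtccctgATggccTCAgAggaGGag

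TPM2 downstream 76-base exon: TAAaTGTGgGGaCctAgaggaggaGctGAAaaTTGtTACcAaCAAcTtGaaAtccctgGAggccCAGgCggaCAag

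The exons in the same position of the 2 genes were more alike than the 2 exons of 1 gene. The upstream exons of TPM1 and TPM2 shared 68.4% of their bases and the downstream exons 77.6%. Within a gene, the upstream and downstream exons shared 56.6% in TPM1 and 52.6% in TPM2.

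In TPM1, inclusion of the upstream exon (event 61140120 to 61141039 as the table gives it) was 0.861, 0.822 and 0.878 in control replicates 1, 2 and 3. It was 0.958, 0.982 and 0.971 in RBM47 replicates 1, 2 and 3. All RBM47 samples lay above all control samples. The mean went from 0.854 ± 0.0284 to 0.970 ± 0.0119 (SD, n = 3 each), a difference of 0.117, under the 0.2 of the study criteria. In this event the flanking exon on the far side is the downstream 76-base exon, so that skipping reads join the preceding exon to it. They numbered 80 in control and 16 with RBM47, while including reads were 950 and 1053 (Fisher's exact p = 1.48e-12). The overall mean rate was above 0.9, so the event was outside the replicate-level test. With all mean rates tested its limma adjusted p was 0.0984.

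The downstream TPM1 exon (event 61140449 to 61141528) was included rarely. Its rates were 0.0568, 0.0507 and 0.0396 in control and 0.0251, 0.0137 and 0.0278 in RBM47 samples. The RBM47 samples were all lower, with a difference in means of -0.0269. Reads were 167 including and 1359 skipping in control and 85 and 1607 in RBM47 cells (Fisher's exact p = 4.37e-10, limma adjusted p = 0.380 with all mean rates tested). Both TPM1 events thus had a larger part of the reads at the upstream exon in RBM47 cells, from junctions on either side of the pair.

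In TPM2 the values went the other way. Inclusion of the upstream exon (event 35674728 to 35675335) was 0.910, 0.888 and 0.883 in control and 0.852, 0.768 and 0.829 in RBM47 samples. Every RBM47 sample was lower than every control sample. The mean went from 0.894 ± 0.0141 to 0.816 ± 0.0435 (SD, n = 3 each), a difference of -0.0777, with Fisher's exact p = 1.48e-04 and a limma adjusted p of 0.238. The difference between TPM1 and TPM2 was not tested.

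For the downstream TPM2 exon the table held 2 events with the same outer ends (35674484 to 35675135) and the same skipping totals (134 in control, 109 with RBM47). The annotation has this exon with 76 or 71 bases, and which event is which was not resolved. The first had rates of 0.684, 0.738 and 0.696 in control and 0.786, 0.779 and 0.783 in RBM47 samples. The second had 0.769, 0.813 and 0.773 in control and 0.851, 0.837 and 0.849 in RBM47 samples. All RBM47 samples were higher in both events, which are not independent. The differences were 0.0772 and 0.0608, with limma adjusted p of 0.295 and 0.309 and Fisher's exact p of 0.00359 and 0.00358. The share of each event in the pair was taken from the odds of its rate (rate over 1 minus rate). The second took 60.4% ± 0.469 in control and 60.3% ± 0.926 in RBM47 cells (SD, n = 3 each, log2 ratio -0.00 with a limma adjusted p of 0.998).

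Read totals of the TPM2 pair did not balance in the way those of TPM1 did. In control cells 965 reads included the upstream TPM2 exon but 134 left it for the exon after the pair, and 49 entered the downstream exon directly while 1057 included it in the second event. In TPM1 the corresponding control totals were 950 and 1359 for the upstream exon and 80 and 167 for the downstream exon. The share of TPM2 transcripts with either exon was therefore not derived. A last TPM2 event, a 134-base exon, had rates of 0.970 to 0.991 and differed by 0.00447.

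**Figure D3:**
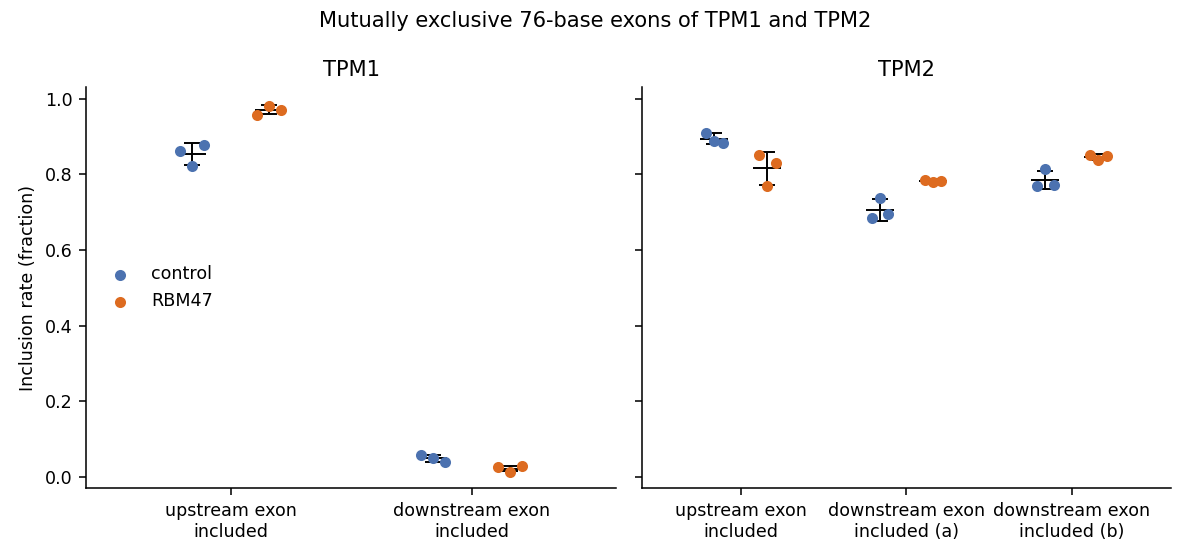
Inclusion rate (fraction) of the upstream and downstream 76-base exons of TPM1 (left) and TPM2 (right), with 1 point per sample (control blue, RBM47 orange) and bars for the group mean and SD (n = 3); (a) and (b) are the events sharing the downstream TPM2 exon. The RBM47 samples were higher than control at the upstream TPM1 exon (0.958 to 0.982 against 0.822 to 0.878) and lower at the upstream TPM2 exon (0.768 to 0.852 against 0.883 to 0.910).

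Further along TPM1, a pair of events with the same outer ends (61141827 to 61145344) stood for an exon of 79 or 127 bases starting at 63356263 in GRCh37. The first, which met the study criteria, had rates of 0.5, 0.524 and 0.28 in control and 0.4, 0.123 and 0.167 in RBM47 samples. The second had 0.4, 0.412 and 0.182 in control and 0.4, 0.107 and 0.167 in RBM47 samples. The groups overlapped in both, since RBM47 replicate 1 lay above control replicate 3. The first differed by -0.205, with SDs of 0.134 in control and 0.149 in RBM47 samples (limma adjusted p = 0.577, Fisher's exact p = 2.26e-04). It rested on 67 reads in control and 79 in RBM47 cells, and the difference was under 0.2 without control replicate 1 (-0.172), control replicate 2 (-0.160), RBM47 replicate 2 (-0.151) or RBM47 replicate 3 (-0.173). The second differed by -0.107 (limma adjusted p = 0.776, Fisher's exact p = 8.93e-04), and by -0.282 from summed reads. Its difference was -0.0479 without RBM47 replicate 2, -0.0663 without control replicate 2, -0.181 without control replicate 3 and -0.194 without RBM47 replicate 1.

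The choice between the exons of that TPM1 pair was taken from the odds of their rates, as the events share their skipping totals. The second event took 36.4% to 40% of the pair in control samples and 46.2% to 50% in RBM47 samples. The RBM47 samples were all higher (38.4% ± 1.86 against 48.7% ± 2.22, SD, n = 3 each). The log2 ratio changed by 0.61 with a standard error of 0.10 and a limma adjusted p of 0.208 over 2221 pairs of competing exons, of which 0.180 percent were called. A two-sided exact permutation test gave 0.1, the lowest p possible. From summed including reads the second event took 50.5% in control and 53.9% in RBM47 cells, a change of 0.20. Neither the shares nor the size of this shift was therefore settled.

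The other 3 TPM1 events, 2 of them with the same outer ends, had a rate of 1 in every sample, from 1012 to 2073 reads in control and 1171 to 2201 in RBM47 cells. The TPM4 event also had a rate of 1 in every sample, from 1819 and 1923 reads.

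TPM3 had the most negative difference among the 33 events, from few reads. The event (chromosome 1, 152397708 to 152409568 as the table gives it) lies before an exon that is the last one of some annotated transcripts, and several annotated exons could be the included one. Its rates were 0.4, 0.333 and 0.2 in control and 0.0909, 0.0189 and 0.0303 in RBM47 samples. The groups did not overlap, and the control samples spread more widely. Mean inclusion went from 0.311 ± 0.102 to 0.0467 ± 0.0387 (SD, n = 3 each), a difference of -0.264. Reads were 36 including and 24 skipping in control and 10 and 78 in RBM47 cells (Fisher's exact p = 4.66e-10). The replicate-level test did not call it (limma adjusted p = 0.228).

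A second TPM3 event shared the upstream end of the first but reached farther (152396616 to 152409568). Its exons were not matched to the annotation by outer span. It was included at 0.0348 ± 0.0136 in control and 0.0305 ± 0.0249 in RBM47 samples (SD, n = 3 each), with overlapping groups. Its skipping reads were 473 in control and 215 in RBM47 cells, while those of the first event were 24 and 78. Of all skipping reads of these events, those to the nearer exon were 4.83% in control (24 of 497, Wilson 95% interval 3.27 to 7.08) and 26.6% in RBM47 cells (78 of 293, interval 21.9 to 32.0). This share was chosen after the values were seen. It has no replicates, and the intervals cover counting error only.

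A pair of TPM3 events with the same outer ends (152412183 to 152422275) and few skipping reads (8 in control and 16 in RBM47 cells) was included at high rates. The deeper of them had rates of 0.993, 0.987 and 0.997 in control and 0.940, 0.964 and 0.994 in RBM47 samples. The other had 0.968, 0.956 and 0.988 in control and 0.796, 0.896 and 0.977 in RBM47 samples. The groups overlapped in both. The differences were -0.0263 and -0.0809, with Fisher's exact p of 0.0399 and 0.304. They were -0.0131 and -0.0341 without RBM47 replicate 1, and -0.0402 and -0.124 without RBM47 replicate 3. From summed reads they were -0.00835 and -0.00939. The deeper exon took 80.1% ± 1.68 of the pair in control and 78.6% ± 2.36 in RBM47 cells (SD, n = 3 each, log2 ratio -0.13 with a limma adjusted p of 0.894). From summed reads the deeper exon took 70.7% in control and 62.5% in RBM47 cells, and that log2 ratio was -0.53.

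Alpha-actinin is the classical example of exons that exclude each other. ACTN1 has an exon of 81 bases (27 codons) used in non-muscle cells and one of 66 bases (22 codons) used in smooth muscle, both in the calcium-binding region. They lie on chromosome 14 at 69345706 to 69345786 and 69345175 to 69345240 in GRCh37, minus strand. They are printed with 20 intronic bases on each side and the exon in capitals, because 1 of them had most of the reads in these cells.

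ACTN1 81-base exon: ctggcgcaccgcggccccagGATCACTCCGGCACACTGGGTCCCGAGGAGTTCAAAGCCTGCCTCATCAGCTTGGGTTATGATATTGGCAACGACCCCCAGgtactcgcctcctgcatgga

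ACTN1 66-base exon: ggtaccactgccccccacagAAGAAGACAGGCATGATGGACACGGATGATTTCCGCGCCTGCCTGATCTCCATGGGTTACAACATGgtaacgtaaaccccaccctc

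Nearly all ACTN1 junction reads at the pair came from the 81-base exon in both groups. Reads from the 81-base exon to the exon after the pair came to 3940 in control and 2599 in RBM47 cells. Reads from the 66-base exon to the exon after the pair came to 127 and 87, whereas those from the exon before the pair to the 66-base exon were 3 in each group. The junctions on either side of the 66-base exon thus gave unequal numbers, and how rare the exon was cannot be read from them. These totals came from 4 events of the pair, and the reads joining both exons, computed in 2 independent ways, were 10 in control and 6 in RBM47 cells either way. The event of the 81-base exon had rates of 0.999, 1 and 1 in control and 1 in each RBM47 sample. That of the 66-base exon had 0.75, 1 and 1 in control and 1 in each RBM47 sample, from 132 and 90 reads. Its difference of 0.0833 came from control replicate 1, and its skipping reads were 2 and 0. These rates compare each exon with skipping both, so they are near 1 for a used exon and for a rare one.

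The last 2 events of that ACTN1 pair differed by -0.000995 and -0.000990. The 183-base ACTN1 exon was included at 0.986 ± 0.00224 in control and 0.976 ± 0.00646 in RBM47 samples (SD, n = 3 each, Fisher's exact p = 0.0443), with overlapping groups. An 85-base exon was included at rates of 0.00326 to 0.0107 in all samples. No ACTN1 event met the study criteria.

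Vinculin has a longer form in muscle, metavinculin, that carries 1 more exon, and caldesmon a longer form in smooth muscle. The VCL exon has 204 bases (68 codons) on chromosome 10, 75871667 to 75871870 in GRCh37, plus strand. Its rates were 0.0373, 0.0245 and 0.0313 in control and 0.0190, 0.00870 and 0.0189 in RBM47 samples. The RBM47 samples were all lower, with a difference in means of -0.0155. Summed reads were 268 including and 1104 skipping in control and 155 and 657 in RBM47 cells (Fisher's exact p = 0.823). From these totals the inclusion rate was higher, 0.108 in control and 0.106 in RBM47 cells, and the difference was -0.00273, so the lower rates of the RBM47 samples did not show in the summed reads. The other VCL event had a rate of 1 in every sample, from 1456 and 769 reads.

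The deepest CALD1 event was a 78-base exon (26 codons) on chromosome 7, 134620439 to 134620516 in GRCh37, plus strand. It was included at 0.139, 0.130 and 0.166 in control and 0.0833, 0.0959 and 0.177 in RBM47 samples. RBM47 replicate 3 was the highest of all 6 and the other RBM47 samples the lowest. The difference was -0.0261 and ranged from -0.0553 without RBM47 replicate 3 to -0.00834 without RBM47 replicate 1 (664 and 287 reads, Fisher's exact p = 0.163), and limma gave an adjusted p of 0.786. The other 4 CALD1 events had rates of 0 to 0.0253 in all samples.

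The read totals of an event also give a rough view of how much RNA of the gene was sequenced, with 1 value per group and so with no replicate error and no test. Summed over all events, RBM47 cells had 0.910 times the reads of control cells, and the median event had 0.856 times. At the deepest event of each gene the ratio was lowest in CALD1 (0.432), VCL (0.528) and ACTN1 (0.656), then TPM3 (0.826) and FLNA (0.942), and highest in TPM4 (1.06), TPM1 (1.06) and TPM2 (1.17). All 5 CALD1 events lay between 0.354 and 0.434 and all 6 ACTN1 events between 0.611 and 0.682. The 7 TPM1 events lay between 1.00 and 1.25, the 4 TPM2 events between 1.14 and 1.22 and the 2 VCL events between 0.528 and 0.592. The 4 FLNA events ranged from 0.707 to 0.983 and the 4 TPM3 events from 0.443 to 1.47. For TPM3 in particular, the ratio of 1 event therefore does not stand for the gene. Of all events, 7.64% had a lower ratio than the CALD1 event and 14.2% a lower one than the VCL event. These ratios come from the same libraries, and the cause of the differences between genes was not tested.

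**Figure D4:**
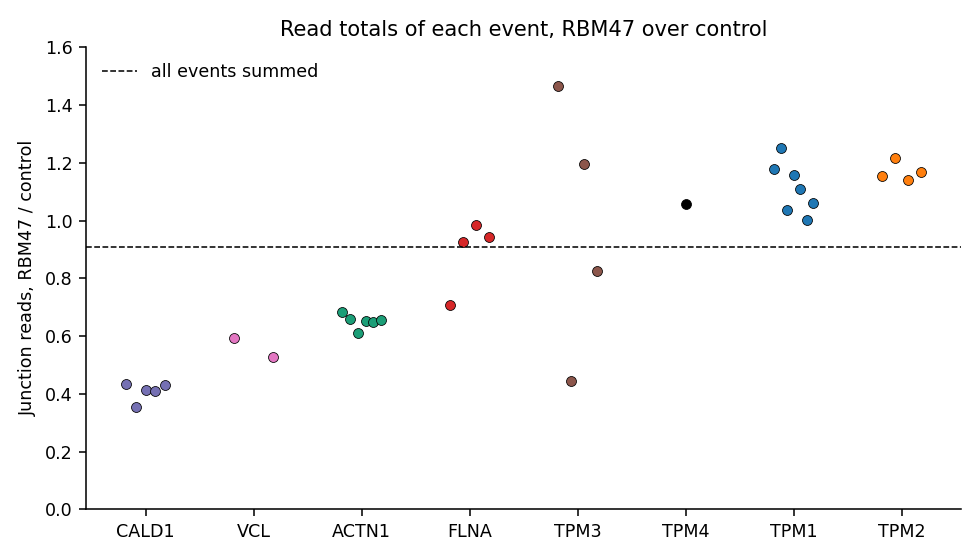
Ratio of junction reads summed over the 3 samples of each group, RBM47 over control, with 1 point per event of the 8 genes and a dashed line at the ratio over all events (0.910). CALD1, VCL and ACTN1 events lay below the line and TPM1, TPM2 and TPM4 events above it.

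As a wider view of the actin cytoskeleton, 89 other genes of actin filaments, contractility and adhesion were counted, of which 65 had 260 events. The study criteria were met by 8 higher and 4 lower events (4.62% of the 260, where 1.40 percent of all events met them). These 12 events lay in 8 genes, and 1 in ADD3 rested on 15 control and 5 RBM47 reads. The list was written with earlier results of these data known, so shares above those of all events are no independent result. The median difference was 0 and the median absolute difference 0.00434. Of 48 events tested, limma called 1 higher and 3 lower (8.33%, where 1.53 percent of all tested events were called).

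The event called higher was in MACF1, a linker of actin and microtubules, which had rates of 0.293 ± 0.00629 in control and 0.545 ± 0.00613 with RBM47 (SD, n = 3 each), at a limma adjusted p of 0.000709. Those called lower were in MYL6, DIAPH1 and FMNL3. MYL6, the essential light chain of non-muscle and smooth muscle myosin, had 0.339 ± 0.0133 in control and 0.0988 ± 0.00925 with RBM47 (SD, n = 3 each), at a limma adjusted p of 0.000252. The formins DIAPH1 and FMNL3, which build unbranched filaments, changed from 0.963 ± 0.00823 to 0.707 ± 0.0347 and from 0.960 ± 0.0343 to 0.619 ± 0.0485 (SD, n = 3 each), at limma adjusted p of 0.00145 and 0.0200. In these 4 events, which were chosen by that test, control and RBM47 rates were fully separate. Among all 260 events of the list, 32 had fully separate rates, where 9.92 percent of all events in the table did. The rates of all 12 events past the study criteria were taken from another row of the deposited table, and the summed reads went the same way in 12 of them. Those of the 4 events called by limma were matched by the RBM47 average alone, so their control rates do not average to the printed control average.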

How the data were processed

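RNA was sequenced from 3 control and 3 RBM47 samples. Per the labels, the authors used TopHat (version not given in the sources used here). The table's genome build is not given there either, so coordinates of events are those of the table, and exons were identified in GRCh37 (GENCODE) by gene and outer span in 29 of 33 events, with 1 constant shift per gene.

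The authors deposited inclusion rates as a fraction per sample, group averages, and including and skipping read counts summed over the 3 samples of a group. The deposited p-value and difference columns hold the authors' own comparison and were not used. The including counts hold reads beyond those in the rates. In 1392 of 24725 events the rates did not average to the printed group averages within 3e-09. Rates were taken from the row that averaged to both (1122 events) or, where no row did, to the RBM47 average alone (251). The control rates of those 251 do not average to the printed control average, and 19 events were left without rates. Of the 33 events, 28 were aligned as deposited and 5 were taken from another row.

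Fisher's exact test (two-sided, scipy 1.17.1) was recomputed from the counts. limma 3.58.1 (R 4.3.3) was fitted to the 5998 events of intermediate mean rate. Rates were transformed to the arcsine of their square root, and the prior variance followed log2 reads. Adjustment was by Benjamini-Hochberg over all of them, and a call needed an adjusted p below 0.05 with a difference of 0.2 or more. Pairs of events with the same outer ends and skipping totals were compared by limma on the log2 ratio of their odds. The fit of the rates was tried on simulated data, with changes set only in deeply read events of intermediate rate. The fit of the log2 ratio of odds was not. Events with all values given were those past a test, those with a difference of at least 0.1 and 30 reads in each group, those sharing outer ends, and the deepest of each gene. Of the other actin-binding genes, those past the replicate-level test are named, and the other events past the study criteria are counted but not reported singly here. Alternatives covered thresholds, transformations, the source of the rates, the replicate block and leaving out each replicate. The genes, the lists and the form of the tests were chosen with earlier results of these data known.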

Additional observations from a re-analysis of the deposited data

How the results depend on the processing

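Among the 33 events, 0 higher and 3 lower met the study criteria. With a required difference of 0.1 there was 1 higher, and with 0.3 there were 0 lower. With rates as they stand in the deposited rows there were 2 higher and 0 lower, and the differences were 0.105 in FLNA, 0.351 in TPM1 and 0.907 in TPM3, by construction from rates of other events. Leaving out 1 replicate gave 2 to 3 lower, and a difference of 0.1 or summed reads gave 4. Of the other actin-binding genes, 8 higher events became 14 with a difference of 0.1, and 7 to 9 higher and 4 to 5 lower when 1 replicate was left out. The replicate-level call in FLNA was lost (0 lower) with no variance trend, where its limma adjusted p was 0.0650. It was called without any 1 replicate, with limma adjusted p from 0.00512 to 0.0104. The TPM3 event had limma adjusted p from 0.1499 to 0.486 over its alternatives. The log2 ratio of competing exons became 0.20 in TPM1 and -0.53 in TPM3 from summed reads (the cause was not tested). Leaving out 1 replicate gave 0.54 to 0.68 in TPM1, -0.02 to 0.03 in TPM2 and -0.20 to -0.01 in TPM3.

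With the replicate number as a block, 1 event was called lower and 0 higher, and the limma adjusted p was 0.00424 in FLNA, 0.326 in TPM3 and 0.477 for the TPM1 ratio. Deviations of samples with the same number had r of -0.0222, -0.00560 and 0.0142 across events. Whether such samples shared a culture or batch is not given by the labels and was not tested. The block changed no call. With it the standard error of the log2 ratio went from 0.134 to 0.0680 in TPM3. That standard error went from 0.0952 to 0.0998 in TPM1 and from 0.0465 to 0.0559 in TPM2. Of the other alternatives, 82 left a count within 1.5 times or a ratio within its spread or on its side of the threshold. A further 191 left a single event on its side of the threshold or, where it was not called, within 1 SD. Part of these 191 could not come out otherwise, as events with a rate of 1 in every sample cannot move. Aligned events likewise keep their values with rates as they stand in the deposited rows. Counts per sample were not used here, so no precision can be given for a single rate, and events with under 200 reads (TPM1, TPM3) are the least certain.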
